A study of Mus musculus with 4 samples.

Results

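The nuclear genes of the mitochondrial ribosome were followed over 4 libraries of sorted mouse islet cells. They were taken as the rows of the deposited gene table whose symbol is Mrpl or Mrps followed by a number and at most a letter, with a status of OK and at least 1 FPKM in at least 1 library. FPKM counts fragments per kilobase of transcript and is scaled to how many fragments were mapped. The rule held 76 of 39170 rows, 47 of the large subunit (Mrpl) and 29 of the small subunit (Mrps). Every row with such a symbol passed, and all 76 had at least 1 FPKM and a status of OK in all 4 libraries. The level part of the rule therefore removed no gene. The genes lie on 17 chromosomes, and 4 pseudogene rows with related symbols are not among them.

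Male MIP-GFP C57BL/6 mice of 6 to 8 weeks, in which the promoter of mouse insulin 1 drives a green fluorescent protein, gave the cells. The mice received streptozotocin (STZ), a toxin that enters beta cells through the glucose transporter Glut2, at 200 mg/kg into the peritoneum, or vehicle, with 3 mice per group and diabetes present 4 days later. Insulin-positive cells were sorted by surface Glut2 into a high gate (Glut2H) and a low gate (Glut2L), which with the treatment gives 4 groups, named below by gate and then by control or STZ, each with 1 library of ribosome-depleted, stranded total RNA. The labels leave unsaid whether RNA of the mice was pooled. With 1 library per group there is no spread between libraries, so no test was run, and every value below compares libraries and not conditions.

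Mitochondrial ribosomes translate the few messenger RNAs of the mitochondrial genome, which encode core subunits of the respiratory chain and ATP synthase. Their ribosomal RNAs come from that genome, whereas all their proteins are made in the cytosol from nuclear genes and imported. The proteins fall into those with a bacterial counterpart and those found only in mitochondria. In beta cells the respiratory chain couples glucose breakdown to insulin release through ATP.

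The label of the gates went against the transcript of the sorted protein. Slc2a2, which encodes Glut2, had 8.74 FPKM in the library labelled Glut2H control, 41.0 in the library labelled Glut2L control, 10.8 in the library labelled Glut2H STZ and 33.7 in the library labelled Glut2L STZ. It was thus higher in both libraries labelled Glut2L, and directions between gates below are directions between libraries so labelled. All 15 beta cell markers reached 1 FPKM in every library, with a summed level in FPKM of 71230 in the control library and 67355 in the STZ library labelled Glut2H, against 338519 and 209773 in those labelled Glut2L. Ins2 made up most of each sum. The 7 alpha cell markers, mostly Gcg, summed to 2328 and 4387 against 4225 and 9994, with 1 at least 2-fold higher and 1 lower between the control gates. The 6 other islet endocrine markers summed to 5652 and 5689 against 9653 and 10648. The 18 immune markers summed to 3837 and 4170 FPKM in the libraries labelled Glut2H and to 126 and 169 in those labelled Glut2L, where Cd3e was listed at 0. The 10 endothelial markers summed to 307 and 265 against 35.6 and 16.1, with Tie1 listed at 0 in the library labelled Glut2L STZ, and the 10 stromal markers to 809 and 694 against 44.5 and 21.04. The 16 acinar markers summed to 4612, 3669 and 4896 FPKM in the libraries labelled Glut2H control, Glut2L control and Glut2H STZ, and to 416 in the library labelled Glut2L STZ, with Amy2a5 listed at 0 in all 4. A single row, Gm20594, took 61.0% and 68.5% of the summed FPKM of the libraries labelled Glut2H, while Rn7sk took 21.1% and 21.4% in those labelled Glut2L. The part of these differences in the values below was not tested, and in such bulk samples fewer cells of a type and less RNA per cell cannot be told apart.

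Mitochondrial ribosomal protein genes were expressed above the middle of the transcriptome in each library. Their median was 18.5 FPKM in the library labelled Glut2H control, 25.8 in Glut2L control, 18.0 in Glut2H STZ and 20.2 in Glut2L STZ, beside 8.14, 8.50, 8.45 and 8.69 FPKM over all rows of at least 1 FPKM. The median gene of the group stood at percentile 73.1, 77.5, 71.8 and 72.7 of those rows. Of the 76 genes, 63 had at least 5 FPKM in all 4 libraries. Genes with a bacterial counterpart (48) and mitochondrion-specific genes (28) had medians of 17.2 and 19.1 FPKM in the library labelled Glut2H control and of 26.2 and 24.5 in the library labelled Glut2L control, and of 14.8 and 18.7 and of 20.2 and 21.4 in the corresponding STZ libraries. The mitochondrion-specific genes thus had the higher median in 3 of 4 libraries.

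The level differed more between genes than between libraries. Mrps21, a small subunit protein with a bacterial counterpart, was the highest by mean, at 264, 309, 273 and 343 FPKM for the control libraries labelled Glut2H and Glut2L and then the STZ libraries labelled Glut2H and Glut2L, an order kept for every series of 4 values below. It lay above every other gene of the group in all 4 libraries. Mrpl33 followed with 165, 133, 157 and 145 FPKM. Mrps12, a protein of the decoding centre, had 108, 106, 73.1 and 135 FPKM. Mrpl20, which binds ribosomal RNA of the large subunit, had 104, 103, 114 and 81.1 FPKM. These ranges overlap, so the order of Mrps12 and Mrpl20 changed between libraries.

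The lowest means belonged to Mrpl35, Mrps27, Mrpl11, Mrpl47 and Mrpl55. Mrpl35 had 2.48, 4.09, 2.86 and 3.42 FPKM. Mrps27, a small subunit protein with RNA-binding repeats, had 3.03, 4.87, 3.67 and 2.65 FPKM. The lowest 3 did not differ beyond their range over libraries, since Mrpl11, at the base of the stalk, had 3.69, 4.70, 3.75 and 2.66 FPKM. Mrpl47 reached 9.54 FPKM in the library labelled Glut2H STZ, with 5.02, 4.15 and 5.08 in the other libraries. Mrpl55 lay between 3.76 FPKM in the library labelled Glut2H STZ and 7.90 in the library labelled Glut2H control.

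**Figure D1:**
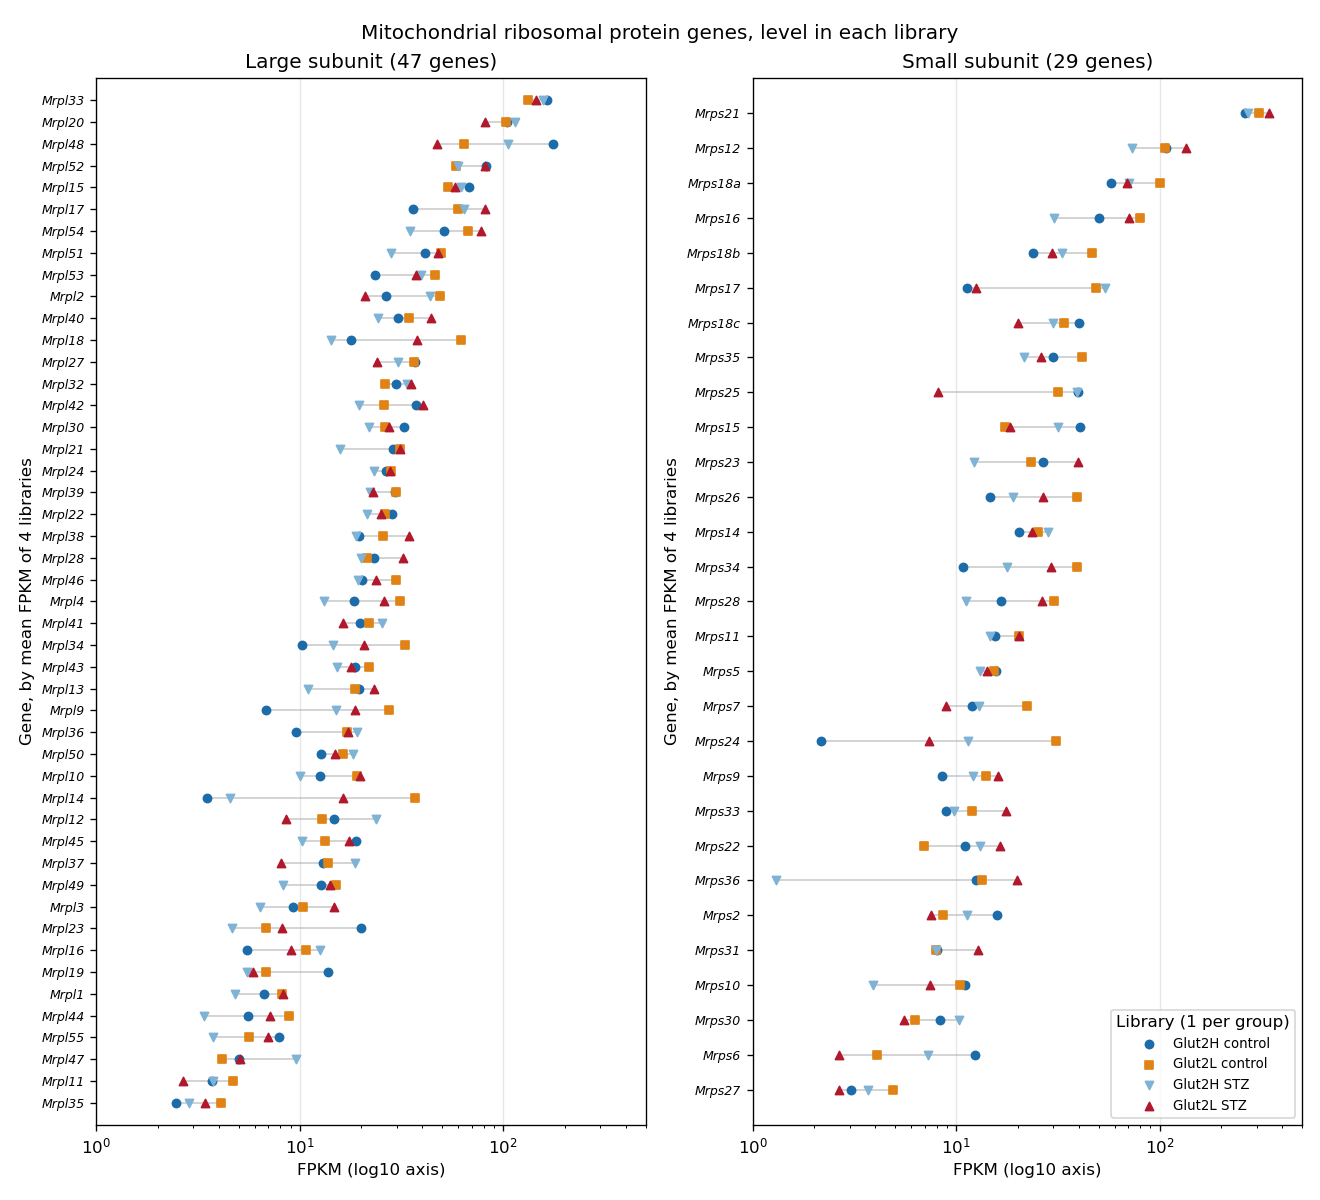
Level of each gene in FPKM (log10 axis), large subunit on the left and small subunit on the right, ordered by mean. Each symbol is 1 library, and the grey line joins the lowest and highest of the 4. Mrps21 stands highest in each library, and Mrps36, Mrps24 and Mrpl14 show the widest lines.

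The spread over the 4 libraries differed between genes. The highest value divided by the lowest had a median of 1.99, was under 2 for 39 of 76 genes and was at least 3 for 13. The same ratio was not taken over all rows, so these counts have no background beside them. The most even were Mrps5 (15.7, 15.3, 13.1 and 14.1 FPKM, a ratio of 1.202), Mrpl24 (26.4, 28.2, 23.2 and 27.6 FPKM, a ratio of 1.22), Mrpl33 (1.24) and Mrpl15 (67.7, 53.6, 62.2 and 57.7 FPKM, a ratio of 1.26). At the other end, Mrps36 spanned a ratio of 15.4, Mrps24 of 14.2 and Mrpl14 of 10.5, as the plot of levels shows. The 13 uneven genes were 6 of the large and 7 of the small subunit.

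The promoter windows of these genes were compared with others, since promoters of mitochondrial ribosomal protein genes are known for sites of ETS factors such as GABP, of NRF1 and of YY1. The windows run from 250 bases before to 50 after the start of the gene in RefSeq (GRCm38.p6) and matched 67 of the 76 genes by symbol. Both strands were searched for CCGGAAG (ETS), GCGCANGCG (NRF1), AAGATGGCG (YY1), CCAAT and TATAAA, and no string contains another. The ETS string was in the windows of 24 genes (35.8%), beside 12.9% of protein-coding genes and 9.93% of all promoters of this length. The NRF1 string was in 15 (22.4%, beside 9.63% and 7.03%) and the YY1 string in 8 (11.9%, beside 2.14% and 1.64%). CCAAT was in 40.3%, beside 42.3% and 41.1%, and TATAAA in 7.46%, beside 14.8% and 15.7%. Large and small subunit genes had the ETS string in 31.7% and 42.3% and the NRF1 string in 26.8% and 15.4%. The median GC content of the windows was 58.3%, beside 56.3% for protein-coding genes. A match is a description of letters and not a bound site.

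The windows below set the highest gene, Mrps21, beside genes at least 2-fold apart between libraries, with Mrps11 added for its start region shared with Mrpl46. Other genes that differed are not shown. Capitals mark the strings found, on either strand, and each window is written 5′ to 3′ along the gene. Mrps21, at chr3:95871465-95871764 (minus strand), holds the ETS and NRF1 strings, both on the reverse strand. Mrpl14, at chr17:45686099-45686398 (plus strand), holds the NRF1 string, and Mrpl18, at chr17:12916042-12916341 (minus strand), holds the ETS string and CCAAT in reverse. Mrps11, at chr7:78782881-78783180 (plus strand), holds the YY1 string in reverse. Mrps17, at chr5:129715247-129715546 (plus strand), holds CCAAT on both strands and TATAAA, and Mrps24, at chr11:5707652-5707951 (minus strand), holds the YY1 string and TATAAA in reverse. Mrps6, at chr16:92058086-92058385 (plus strand), holds none of the strings.
Mrps21: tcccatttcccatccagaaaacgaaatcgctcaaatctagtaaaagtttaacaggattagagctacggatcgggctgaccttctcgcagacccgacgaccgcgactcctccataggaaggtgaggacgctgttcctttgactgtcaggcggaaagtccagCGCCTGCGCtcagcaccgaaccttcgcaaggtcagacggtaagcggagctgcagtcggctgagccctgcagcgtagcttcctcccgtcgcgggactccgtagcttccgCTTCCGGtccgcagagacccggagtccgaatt
Mrpl14: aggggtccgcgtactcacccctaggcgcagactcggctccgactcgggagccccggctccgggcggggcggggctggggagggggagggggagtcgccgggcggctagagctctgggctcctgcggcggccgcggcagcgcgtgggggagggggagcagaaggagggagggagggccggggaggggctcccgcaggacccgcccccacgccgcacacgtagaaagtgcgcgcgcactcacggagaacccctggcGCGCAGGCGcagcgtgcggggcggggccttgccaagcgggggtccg
Mrpl18: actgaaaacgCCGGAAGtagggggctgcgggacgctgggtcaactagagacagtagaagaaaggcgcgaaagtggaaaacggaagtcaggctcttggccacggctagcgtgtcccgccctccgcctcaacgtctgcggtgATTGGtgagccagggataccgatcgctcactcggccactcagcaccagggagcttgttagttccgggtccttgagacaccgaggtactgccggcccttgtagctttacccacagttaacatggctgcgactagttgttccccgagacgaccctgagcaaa
Mrps11: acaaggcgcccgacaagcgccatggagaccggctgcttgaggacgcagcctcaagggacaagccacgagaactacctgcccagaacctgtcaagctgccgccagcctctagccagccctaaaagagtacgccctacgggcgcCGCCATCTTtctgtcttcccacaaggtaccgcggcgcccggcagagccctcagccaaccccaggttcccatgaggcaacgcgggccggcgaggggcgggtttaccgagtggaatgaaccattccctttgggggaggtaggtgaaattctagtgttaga
Mrps17: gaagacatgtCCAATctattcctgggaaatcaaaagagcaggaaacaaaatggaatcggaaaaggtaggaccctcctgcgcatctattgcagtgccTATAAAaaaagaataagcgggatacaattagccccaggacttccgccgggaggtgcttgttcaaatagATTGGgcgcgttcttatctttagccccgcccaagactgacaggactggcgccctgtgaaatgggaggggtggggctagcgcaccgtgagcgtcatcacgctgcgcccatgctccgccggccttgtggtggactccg
Mrps24: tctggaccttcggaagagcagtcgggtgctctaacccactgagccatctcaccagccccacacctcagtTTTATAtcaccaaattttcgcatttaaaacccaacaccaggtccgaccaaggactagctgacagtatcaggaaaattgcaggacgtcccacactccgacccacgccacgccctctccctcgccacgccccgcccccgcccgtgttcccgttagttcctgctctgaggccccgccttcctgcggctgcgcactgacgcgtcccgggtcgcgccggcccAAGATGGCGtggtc
Mrps6: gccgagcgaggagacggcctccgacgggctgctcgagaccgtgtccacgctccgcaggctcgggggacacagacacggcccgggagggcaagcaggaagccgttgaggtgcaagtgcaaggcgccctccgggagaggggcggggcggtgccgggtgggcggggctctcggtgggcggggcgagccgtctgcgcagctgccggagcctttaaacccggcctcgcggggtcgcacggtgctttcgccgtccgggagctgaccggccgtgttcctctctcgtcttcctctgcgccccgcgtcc

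Close, opposed start sites were common in the group. Of the 75 genes with a model in GENCODE M21, 32 (42.7%) had the start of a protein-coding gene on the other strand within 1000 bases. Among 21226 protein-coding rows, expressed or not, 2345 (11.05%) had such a start nearby. No share over expressed rows alone was taken. Mrps11 and Mrpl46 form such a pair within the group, with starts 412 bases apart. Mrps11 had 15.5, 20.2, 14.7 and 20.3 FPKM and Mrpl46 had 20.1, 29.6, 19.3 and 23.8 FPKM, so both were higher in the libraries labelled Glut2L. Other pairs join Mrpl36 to Ndufs6, a subunit of respiratory complex I, 29 bases away, and Mrpl32 to Psma2, a proteasome subunit, 75 bases away. The 32 genes with such a neighbour and the other 44 had medians of 0.24 and 0.09 in the log2 ratio of Glut2L to Glut2H control, and of 0.25 and 0.32 in STZ. The 2 sets thus changed order between the gate comparisons.

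Large subunit genes had the higher median in each library. The medians of the large subunit genes were 19.5, 26.1, 18.8 and 22.9 FPKM, and those of the small subunit genes 15.5, 23.4, 13.1 and 18.4 FPKM. The ratio of large to small was 1.26, 1.12, 1.44 and 1.25. The geometric means gave ratios nearer to 1, at 1.07, 0.98, 1.02 and 1.13, and the direction turned in the library labelled Glut2L control. The difference is small beside the range within each subunit, which in the library labelled Glut2H control ran from 2.48 to 175 FPKM for large and from 2.17 to 264 for small subunit genes. It also moved with the genes counted. In a further count, genes whose deposited locus reaches over 1000 bases beyond the gene were left out. The ratio of medians was then 1.68 in the library labelled Glut2L control and 1.57 in Glut2H STZ. In Glut2H control and Glut2L STZ it moved by no more than 0.1 on the log2 scale from 1.26 and 1.25. The library labelled Glut2L control thus went from the lowest ratio of medians to the highest.

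Mrps21 alone carried 29.3%, 26.9%, 31.1% and 33.1% of the summed FPKM of the small subunit. The sums were 1404, 1454, 1256 and 1394 FPKM for the large and 898, 1148, 877 and 1036 FPKM for the small subunit. Their ratio was 1.56, 1.27, 1.43 and 1.35, and 2.21, 1.73, 2.08 and 2.01 without Mrps21. With all 76 genes counted, the library labelled Glut2L control had the lowest ratio of large to small by sums as by medians. For the medians this order did not hold without the genes of wide loci, as given above. All 76 genes together made up 0.0784%, 0.157%, 0.0622% and 0.156% of the summed FPKM of all rows, shares that the rows Gm20594 and Rn7sk enter through the total.

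Comparisons between libraries used the log2 ratio of FPKM plus 1, which understates the change of low genes, and counted genes at least 2-fold apart on that scale. In control mice, the library labelled Glut2L exceeded the library labelled Glut2H by 2-fold or more for 8 of the 76 genes and fell short of it by as much for 4. Over all 16234 rows measured the shares were 19.7% higher and 18.5% lower, so the group had fewer genes past 2-fold (15.8%) than the background (38.2%). Of 13259 protein-coding rows, 33.9% were past 2-fold. The group also had a higher median level than all rows, and the part of level in this contrast was not tested. The median log2 ratio was 0.20, with a median absolute deviation of 0.41, beside 0.15 and 0.72 over all rows. Large subunit genes had a median of 0.15, with 4 higher and 2 lower of 47, and small subunit genes 0.30, with 4 higher and 2 lower of 29.

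Mrps24, a small subunit protein near the messenger RNA entry, had 2.17 FPKM in the library labelled Glut2H control and 30.8 in the library labelled Glut2L control, with 11.4 and 7.36 in the corresponding STZ libraries. The control libraries were the lowest and the highest of the 4, with a log2 ratio of 3.33. Mrps24 shares 226 exonic bases on the same strand with Urgcp, which had 7.56, 29.4, 28.2 and 44.3 FPKM, and fragments from the shared bases cannot be assigned from these values. Mrpl14, a large subunit protein that binds the assembly factor Malsu1, had 3.51, 37.0, 4.55 and 16.3 FPKM and a log2 ratio of 3.08. Both libraries labelled Glut2L lay above both labelled Glut2H. Mrps17, a small subunit protein that contacts ribosomal RNA, had 11.3, 48.4, 54.0 and 12.5 FPKM and a log2 ratio of 2.003. Mrpl9, of the large subunit, had 6.84, 27.4, 14.99 and 18.6 FPKM and a log2 ratio of 1.86.

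The other genes higher in the library labelled Glut2L control were Mrps34 (10.8, 39.4, 17.7 and 29.1 FPKM), Mrpl18 (17.8, 62.2, 14.2 and 37.6 FPKM), Mrpl34 (10.3, 33.0, 14.6 and 20.7 FPKM) and Mrps26 (14.6, 39.2, 19.0 and 26.8 FPKM). For each of these 4, both libraries labelled Glut2L lay above both labelled Glut2H. Mrps34, a mitochondrion-specific protein, shares 763 exonic bases on the same strand with Nme3, which had 10.7, 30.4, 9.74 and 26.3 FPKM.

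The 4 genes lower in the library labelled Glut2L control included Mrpl48, a protein of the central protuberance of the large subunit, with 175, 64.0, 105 and 47.2 FPKM and a log2 ratio of −1.44. Mrpl23, which lines the exit of the peptide tunnel, had 19.9, 6.84, 4.62 and 8.16 FPKM and a log2 ratio of −1.42. It was highest in the library labelled Glut2H control alone. Mrps6, of the small subunit platform, had 12.3, 4.07, 7.24 and 2.66 FPKM and a log2 ratio of −1.39. It shares 305 exonic bases on the same strand with Gm49711 and 159 with Slc5a3, which had 3.08, 2.78, 2.73 and 2.99 FPKM. Mrps15, of the small subunit, had 40.4, 17.4, 31.6 and 18.4 FPKM and a log2 ratio of −1.17. Mrpl48, Mrps6 and Mrps15 were lower in both libraries labelled Glut2L than in both labelled Glut2H.

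In STZ mice, 10 genes had at least 2-fold more in the library labelled Glut2L and 7 had at least 2-fold less. The background was 22.9% of 15839 rows higher and 17.8% lower. The group again had a smaller share past 2-fold, 22.4% beside 40.7%, with 36.1% for protein-coding rows. The median log2 ratio was 0.29, with a median absolute deviation of 0.54, beside 0.23 and 0.75 over all rows. The subunits did not stand apart, with medians of 0.29 (6 higher and 4 lower of 47) for the large and 0.27 (4 higher and 3 lower of 29) for the small.

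Mrps36, a protein also assigned to the oxoglutarate dehydrogenase complex, had 12.5, 13.3, 1.299 and 19.98 FPKM. It was low in the library labelled Glut2H STZ alone, which gave a log2 ratio of 3.19 between the STZ gates and 0.09 between the control gates. Mrps23, a mitochondrion-specific small subunit protein, had 26.7, 23.4, 12.2 and 39.7 FPKM and a log2 ratio of 1.63 in STZ. Mrpl14 had 1.64 and Mrpl18 1.35 in STZ. The other 6 genes past 2-fold higher, Mrpl3, Mrpl13, Mrpl42, Mrpl54, Mrps16 and Mrps28, had log2 ratios from 1.01 (Mrpl42) to 1.204 (Mrps16).

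Mrps25, another mitochondrion-specific small subunit protein, had 39.8, 31.7, 39.3 and 8.16 FPKM and a log2 ratio of −2.14 between the STZ gates. It was low in the library labelled Glut2L STZ alone. Mrps17 had −2.03, the reverse of its control ratio. Mrpl12, the stalk protein that also binds mitochondrial RNA polymerase, had 14.8, 12.9, 23.8 and 8.56 FPKM and a log2 ratio of −1.37, against −0.19 in control. Mrps6 had −1.17, Mrpl48 −1.14, Mrpl37 −1.11 and Mrpl2 −1.04.

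The size of the gate differences depended on how libraries were scaled. With the FPKM of each library rescaled to the same total, the median of all log2 ratios moved to 0.87 in control and 1.18 in STZ, and the share of higher among all rows past 2-fold went from 51.6% to 78.6% and from 56.4% to 85.6%. The counts in the group then became 36 higher and 0 lower in control (47.4% and 0%, beside 44.3% and 12.1% of all rows). In STZ they were 52 higher and 1 lower (68.4% and 1.32%, beside 58.4% and 9.79% of all rows). With an equal sum over rows other than the 20 highest, mitochondrial rows and loci under 300 bases, the counts were 8 and 4 in control and 8 and 7 in STZ. All rows then had 18.8% higher and 19.0% lower in control and 21.5% and 18.4% in STZ. The median of the group minus that of all rows was 0.05 and 0.06 as deposited, and 0.10 and 0.19 with the same total.

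**Figure D2:**
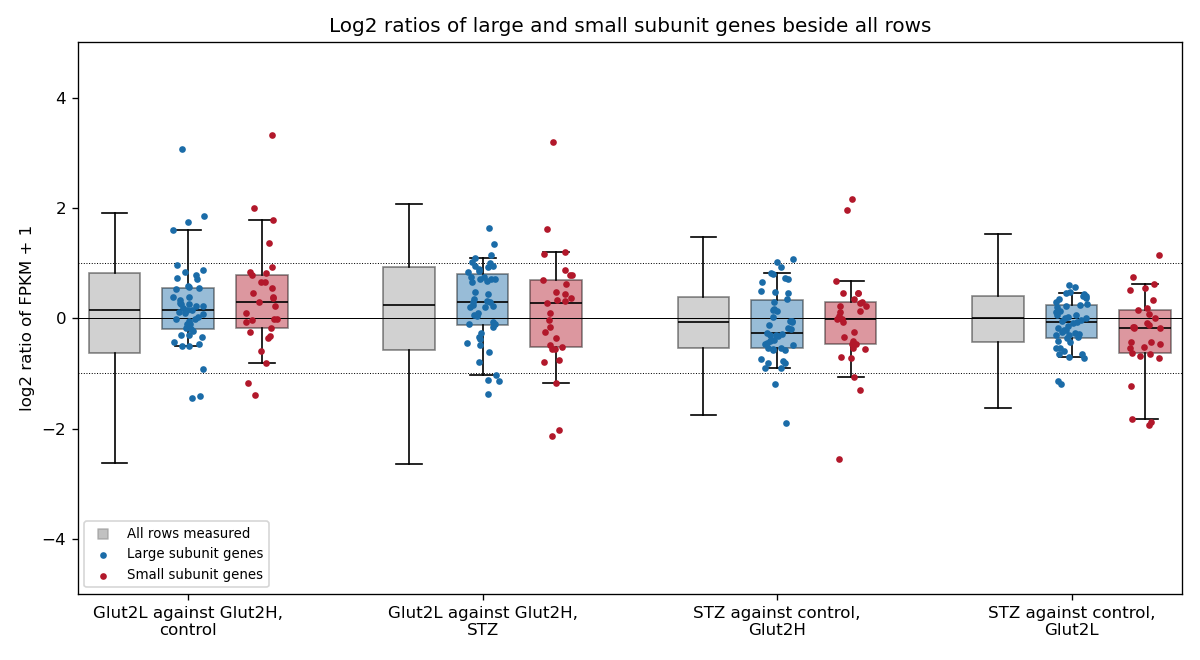
Log2 ratios of FPKM plus 1 in the 4 comparisons for all rows measured (grey), large subunit genes (blue) and small subunit genes (red). Boxes show the quartiles and median, whiskers the 5th to 95th percentile, points are genes and dotted lines mark 2-fold. The boxes of both subunits lie within the spread of all rows in each comparison.

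Few genes kept a gate difference in both treatments. Mrpl14 and Mrpl18 stood at least 2-fold higher in Glut2L by label, both in control and in STZ (2.63%, beside 8.15% of 14340 rows). Mrpl48 and Mrps6 were lower in both (2.63%, beside 10.4%), and Mrps17 was past 2-fold in opposite ways (1.32%, beside 2.86%). The gate comparisons share no library, and across the 76 genes their log2 ratios had a Pearson r of 0.14 and a Spearman rho of 0.16. Over all 14340 rows Pearson's r was 0.51. These are descriptions across genes that share libraries and are not independent.

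**Figure D3:**
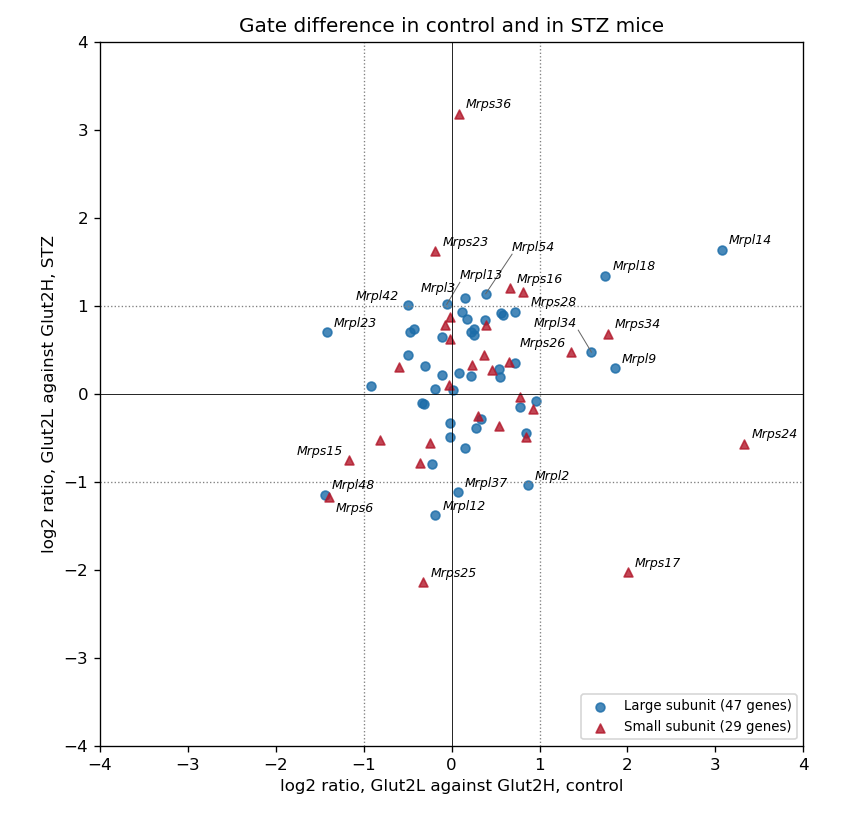
Log2 ratio of Glut2L to Glut2H in control mice (horizontal) and in STZ mice (vertical) for each gene, large subunit as circles and small subunit as triangles. Dotted lines mark 2-fold, and genes past 2-fold on either axis are named. Mrpl14 and Mrpl18 lie at the upper right, Mrpl48 and Mrps6 at the lower left, and Mrps17 at the lower right.

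Of the 4 genes that kept their gate difference, Mrpl14 held the NRF1 string alone and Mrpl18 the ETS string and CCAAT, as printed above. Mrpl48, which has 4 windows in the table, held the ETS string in 1 of them and TATAAA in another, and Mrps6 held none. No match says only that these letters are not in this window.

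Between STZ and control in the libraries labelled Glut2H, 4 genes were at least 2-fold higher and 5 lower in STZ. The background was 9.62% of 15558 rows higher and 13.8% lower. The group had 11.8% past 2-fold beside 23.5%, with 17.2% for protein-coding rows. The median log2 ratio was −0.15, beside −0.07 over all rows, with large subunit genes at −0.27 (2 higher and 2 lower of 47) and small subunit genes at −0.02 (2 higher and 3 lower of 29). With the same total per library, the medians of the group and of all rows were −0.37 and −0.26, with 2 genes higher and 9 lower. Over all rows 7.15% were then higher and 15.6% lower, beside 2.63% and 11.8% of the group.

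Mrps17 was the highest, from 11.3 to 54.0 FPKM, a log2 ratio of 2.16. Mrps24 followed, from 2.17 to 11.4 FPKM and a log2 ratio of 1.96. Mrpl16, a large subunit protein, had 5.502, 10.7, 12.6 and 9.03 FPKM and a log2 ratio of 1.07, and Mrpl9 had a log2 ratio of 1.03. For these 4 genes the library labelled Glut2H control was the lowest of all 4. Lower in STZ were Mrps36 with a log2 ratio of −2.55, Mrpl23 with −1.90 and Mrps23 with −1.07. Mrps10, of the small subunit head, had 11.01, 10.4, 3.89 and 7.46 FPKM and a log2 ratio of −1.29. Mrpl19, of the large subunit, had 13.7, 6.81, 5.48 and 5.88 FPKM and a log2 ratio of −1.19. Each of these 5 had its lowest value in the library labelled Glut2H STZ.

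That library held the lowest value for 35 of the 76 genes (46.1%), beside 30.4% of the 17832 rows with at least 1 FPKM in some library. It was the lowest for 25 of 47 large and 10 of 29 small subunit genes. The library labelled Glut2L control held the highest value for 26 genes (34.2%, beside 27.9%). Background rows with a tied lowest value, such as 0, were assigned to the first library in the order above. The 30.4% can therefore be too low, whereas all genes of the group had at least 1 FPKM in every library.

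Between STZ and control in the libraries labelled Glut2L, 1 gene was at least 2-fold higher and 6 were lower in STZ. The background was 10.2% of 15602 rows higher and 11.1% lower. The group had 9.21% past 2-fold beside 21.2%, with 14.4% for protein-coding rows. The median log2 ratio was −0.14, beside 0.00 over all rows, with large subunit genes at −0.07 (0 higher and 2 lower of 47) and small subunit genes at −0.17 (1 higher and 4 lower of 29). The acinar markers stood lower in the same comparison, with 15 of 15 measured at least 2-fold lower and a median of −3.23, and their part in these values was not tested.

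Mrps22, a mitochondrion-specific small subunit protein, was the gene past 2-fold higher, with 10.996, 6.90, 13.1 and 16.5 FPKM and a log2 ratio of 1.15. Mrps23 followed at 0.74, Mrps31 at 0.62 and Mrpl42 at 0.61. Lower in STZ were Mrps24 from 30.8 to 7.36 FPKM (−1.93), Mrps17 from 48.4 to 12.5 (−1.87) and Mrps25 from 31.7 to 8.16 (−1.83). Mrps7, of the small subunit head, had 11.9, 22.1, 12.9 and 8.94 FPKM and a log2 ratio of −1.22. Mrpl2, near the peptidyl transferase centre, had 26.4, 48.9, 43.8 and 20.9 FPKM and a log2 ratio of −1.19, and Mrpl14 had −1.13. Of these 6 genes, all but Mrps17 had a deposited locus that reached over 1000 bases beyond the gene.

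No gene was at least 2-fold higher or lower after STZ in both gates, beside 1.31% and 2.07% of 13427 rows. Mrps17 and Mrps24 were past 2-fold in opposite ways (2.63%, beside 3.46%). Both were higher after STZ in the libraries labelled Glut2H and lower in those labelled Glut2L. Across the 76 genes the log2 ratios of the STZ comparisons, which share no library, had a Pearson r of −0.46 and a Spearman rho of −0.35, beside an r of −0.01 over all rows.

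**Figure D4:**
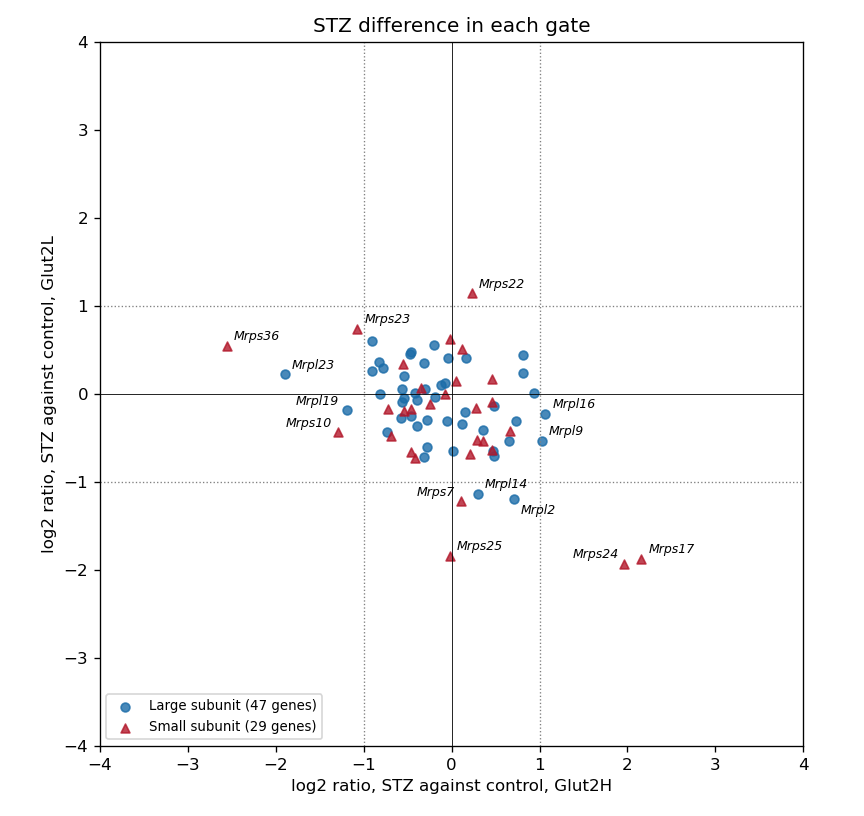
Log2 ratio of STZ to control in the libraries labelled Glut2H (horizontal) and Glut2L (vertical) for each gene, large subunit as circles and small subunit as triangles. Dotted lines mark 2-fold, and genes past 2-fold on either axis are named. Mrps17 and Mrps24 lie alone at the lower right, and the upper right and lower left corners beyond 2-fold are empty.

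The STZ ratio in the libraries labelled Glut2L minus that in the libraries labelled Glut2H was at least 1 on the log2 scale for 8 genes and at most −1 for 14. The background was 18.4% and 15.5% of 17732 rows. The group had 28.9% past that size beside 33.8%, with 26.4% for protein-coding rows. The median difference was 0.14, beside 0.07 over all rows. With the same total per library, the counts turned to 16 genes upward and 7 downward, with a median of 0.42 beside 0.30. Of all rows, 22.8% were then upward and 13.2% downward, beside 21.1% and 9.21% of the group. The difference as deposited was largest upward for Mrps36 at 3.10, Mrpl23 at 2.12, Mrps23 at 1.81 and Mrpl42 at 1.51. It was largest downward for Mrps17 at −4.03, Mrps24 at −3.89, Mrpl2 at −1.90 and Mrps25 at −1.82. Large subunit genes had 6 and 8 of 47 past that size and small subunit genes 2 and 6 of 29.

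Several genes have known roles outside a plain place in their subunit, or paralogs. Mrps18a, Mrps18b and Mrps18c are paralogs, and Mrps18a and Mrps30 sit in the large subunit of the solved structure in spite of their names. Mrps18a had 57.6, 99.9, 70.6 and 69.2 FPKM and Mrps18b 23.8, 46.2, 33.1 and 29.4 FPKM, both highest in the library labelled Glut2L control. Mrps18c had 40.3, 33.9, 30.04 and 20.1 FPKM and was lowest in the library labelled Glut2L STZ. Mrps18a was the highest of the 3 paralogs in every library. Mrps30 had 8.28, 6.26, 10.3 and 5.53 FPKM. Mrpl53, which shares 695 exonic bases on the same strand with Gm42688, had 23.3, 46.3, 39.4 and 37.4 FPKM. With Mrps18a and Mrps30 counted in the large subunit and Mrps36 left out, the ratio of large to small medians was 1.25, 1.08, 1.36 and 1.28.

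Over all 4 comparisons, 47 of the 76 genes (61.8%) stayed within 2-fold, beside 48.8% of all rows and 51.2% of protein-coding rows measured throughout, of which 51.2% and 48.8% passed 2-fold at least once. The large subunit had 32 of 47 (68.1%) within 2-fold and the small subunit 15 of 29 (51.7%). The deposited intervals, whose level is not stated, had a median half-width of 82.0%, 79.9%, 84.1% and 81.4% of the FPKM. For Mrps17 they ran from 0.579 to 22.8 FPKM in the library labelled Glut2H control and from 5.02 to 136 in the library labelled Glut2H STZ. They overlapped for all 76 genes in each of the 4 comparisons, so no gene of the group stood apart by the deposited intervals. The share of all rows whose intervals overlapped was not taken, so this is not read as a trait of the group. The intervals did not always hold the FPKM itself. Mrpl52 lay above its upper bound in both control libraries and in the library labelled Glut2L STZ, with 58.3 against 52.9 in Glut2L control.

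The span of the deposited locus moved with the differences in 2 of the 4 comparisons. For 24 of 75 genes the locus reached over 1000 bases beyond the GENCODE M21 gene. In the control gates these had 5 genes higher and 1 lower and a median of 0.57, against 3 higher and 3 lower and 0.08 for the other 52. In the libraries labelled Glut2L after STZ they had 0 higher and 5 lower and a median of −0.36, against 1 higher and 1 lower and −0.06. In the STZ gates they had 3 higher and 3 lower and a median of 0.27, against 7 higher and 4 lower and 0.30. After STZ in the libraries labelled Glut2H they had 1 higher and 1 lower and −0.04, against 3 higher and 4 lower and −0.26. Without them, the control gate median of the small subunit genes was −0.02 instead of 0.30. Mrpl33 has no model in GENCODE M21, so its reach is unknown, and it was counted with the other 52. Its deposited locus ran from position 31596935 to 32084962. The part of overlapping gene models in these counts and medians was not tested. Mrpl14, Mrpl18, Mrpl48 and Mrps24 are among the 24, and Mrps17, Mrps36, Mrpl9, Mrpl23 and Mrps6 are not.

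Genes that act with the mitochondrial ribosome were described from lists chosen for their function. Counts past 2-fold in these lists stand beside 19.7% higher and 18.5% lower of all rows between the control gates. Between the STZ gates the shares of all rows were 22.9% and 17.8%. The 7 mitoribosomal proteins with other symbols had 1 gene higher and 0 lower between the control gates and a median of 0.46. That gene was Ict1, a peptide release protein of the large subunit, with 23.7, 79.4, 12.3 and 44.0 FPKM and log2 ratios of 1.70 in control and 1.76 in STZ. Aurkaip1, of the small subunit, had 27.3, 52.6, 44.0 and 22.9 FPKM. Its order between the gates differed with treatment, with a log2 ratio of 0.92 in control and −0.91 in STZ. Among those of at least 5 FPKM in the higher library, the lowest were Ptcd3 (−0.50) and Dap3 (0.34), both of the small subunit, and Mrp63, below that level at 4.40 and 4.49 FPKM in the control libraries, had 0.03.

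The 14 translation factors had 3 higher and 1 lower between the control gates, with a median of −0.13, and 0 in each direction in STZ. Mtif3, an initiation factor, had 7.69, 18.5, 4.62 and 9.07 FPKM and a log2 ratio of 1.17, and Tsfm, an elongation factor, had 4.23, 9.90, 8.66 and 15.9 FPKM and a log2 ratio of 1.06. The gene past 2-fold lower was Pdf, the peptide deformylase, with 4.85, 0.787, 1.39 and 3.04 FPKM and a log2 ratio of −1.71. Among factors of at least 5 FPKM in the higher library, Taco1, a translational activator, and the initiation factor Mtif2 were lowest, at −0.89 and −0.71. The 27 rows measured for assembly and ribosomal RNA modification had 5 higher and 1 lower, with a median of 0.27. Between the control gates, the counts higher in this list and among the translation factors were near the share of all rows. The counts lower were below it. Mtg1, a GTPase of large subunit assembly, had 43.8, 4.61, 7.75 and 7.91 FPKM, high in the library labelled Glut2H control alone, and a log2 ratio of −3.00. Trub2 followed at −0.87, and the methyltransferase Mrm1 (1.42) and the assembly factor Rbfa (1.38) were highest.

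The 17 genes of mitochondrial transcription and RNA stability had 2 higher and 1 lower between the control gates, with a median of −0.10, and a median of 0.48 in STZ. Grsf1, of the RNA granules, had 21.7, 58.5, 34.6 and 34.7 FPKM and a log2 ratio of 1.39, and Elac2, a transfer RNA processing enzyme, 1.02. Polrmt, the mitochondrial RNA polymerase, had 32.1, 8.59, 17.1 and 24.1 FPKM and a log2 ratio of −1.79, and Mtpap, the poly(A) polymerase, −0.59. Peo1, the mitochondrial DNA helicase, lay lower at −0.70 but reached 3.36 FPKM at most. All 37 rows of the mitochondrial genome, with its 13 messenger RNAs and 2 ribosomal RNAs, were listed at 0 in all 4 libraries, so the RNAs these ribosomes hold and translate could not be set beside their proteins.

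Between the control gates, the mitochondrial ribosomal proteins had a median nearer to that of the cytosolic ribosome than to that of the respiratory chain. The 79 nuclear respiratory chain and ATP synthase genes measured had 22 higher and 2 lower between the control gates, with a median of 0.75, and 8 higher and 3 lower with a median of 0.39 in STZ. Over all rows, 19.7% were higher and 18.5% lower in control, and 22.9% and 17.8% in STZ. The 83 cytosolic ribosomal protein genes had 3 higher and 0 lower and a median of 0.15 in control, beside 0.20 for the mitochondrial ribosome. In STZ, 84 of them had 2 higher and 2 lower and a median of −0.02, and there the median of the mitochondrial ribosome, 0.29, was nearer to that of the respiratory chain. The 15 beta cell markers had medians of 1.78 and 1.55 in the same comparisons, with 15 and 13 at least 2-fold higher. The difference between these lists was not tested.

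**Figure D5:**
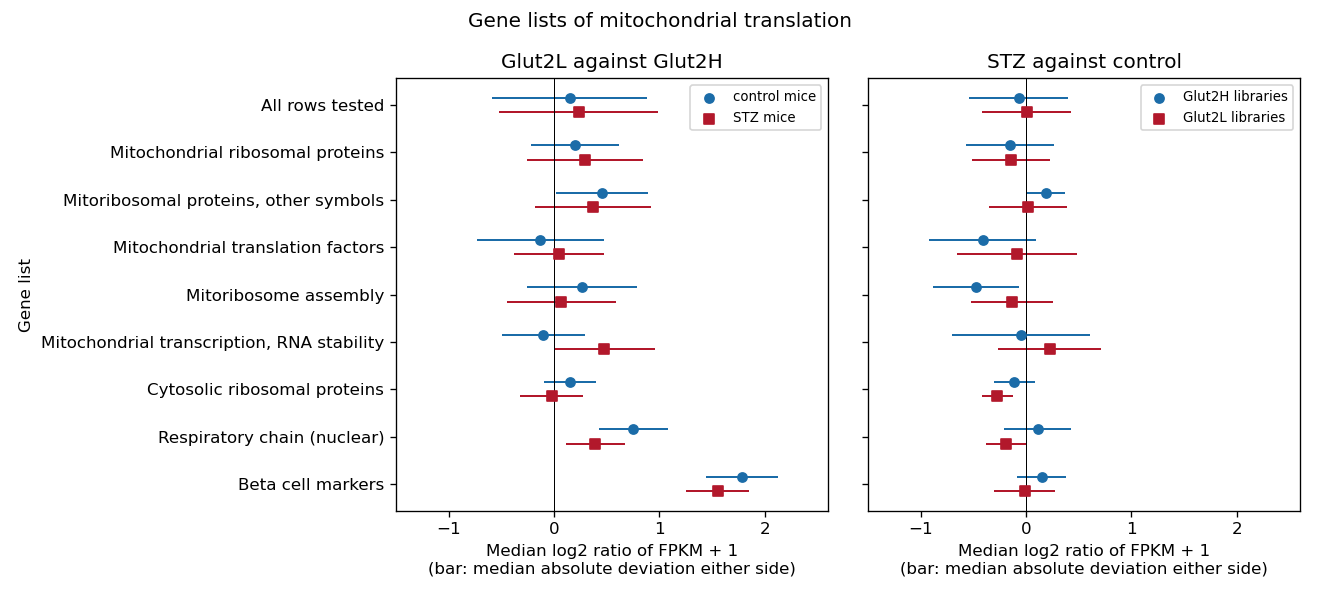
Median log2 ratio of FPKM plus 1 for each gene list, with a bar of 1 median absolute deviation to either side, for Glut2L against Glut2H (left) and STZ against control (right). The mitochondrial ribosomal proteins lie at 0.20 and 0.29 between the gates, with the respiratory chain at 0.75 and 0.39 and the beta cell markers at 1.78 and 1.55.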

How the data were processed

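RNA of 4 sorted islet cell populations was measured, with 1 library each. The tools were TopHat2, SAMtools and Cuffdiff, with GRCm38 (mm10) as the genome, per the submitters' processing notes. As to versions, annotation release and library normalization, these were not given in the sources used here. Deposited were FPKM values per gene and library, with 2 interval bounds and a status, per the file headers. The tables of single samples gave identical values (0 of 156680 differed). Read numbers are unknown, so no counting interval is given.

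Genes were selected by symbol. The members, lists and tests were chosen with earlier results of these data known. Each of the 4 comparisons took the difference of log2(FPKM + 1) between 2 libraries, over rows with a status of OK in both and at least 1 FPKM in either, and counted values of at least 2-fold. The counting step was run on simulated data without noise, in which the placed changes were larger than 2-fold. Its outcome was therefore fixed in advance and checks only that the counting works. Over the 16234 rows of the Glut2L against Glut2H control comparison, 100 of 100 genes placed higher were recovered, and 100 of 100 placed lower. Of the unchanged rows, 0 were called. Recovery under the spread between real libraries was not tested. Named genes are, per comparison, the 4 highest and 4 lowest that reach 5 FPKM in the higher library, the 5 highest and 5 lowest by mean, those past 2-fold in both gate or both STZ comparisons, genes named for their roles and, for related lists, the 2 highest and 2 lowest in the control gates under the same minimum of 5 FPKM. The other genes past 2-fold, the most even genes, the opposed pairs, Pdf, Mrp63, Peo1, Mettl17 and Tfb2m were named after their values were seen.

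Positions, exons and opposed starts come from GENCODE M21 (GRCm38), which held 75 of the 76 genes by Ensembl ID, and promoter windows from RefSeq (GRCm38.p6). Python 3.11.15, numpy 2.4.6, pandas 2.3.3 and matplotlib 3.10.9 were used. Alternatives covered the pseudocount, the filter, the scaling, the fold, the deposited intervals, the source table, the subunit assignment and the genes included.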

Additional observations from a re-analysis of the deposited data

Results flagged for a closer look

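For 2 genes of the small subunit, the difference between STZ and control was at least 2-fold in both gates and ran in opposite ways. The STZ effect of Mrps17 in the libraries labelled Glut2L minus that in the libraries labelled Glut2H was −4.03 on the log2 scale, from effects of −1.87 and 2.16. For Mrps24 it was −3.89, from effects of −1.93 and 1.96. The difference was not tested, since each effect rests on 1 library per group. The deposited intervals of both genes overlapped in all 4 comparisons. Mrps24 lies in a wide deposited locus and shares exonic bases with Urgcp, and Mrps17 does neither.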

How the results depend on the processing

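With the FPKM of each library rescaled to the same total, the gate comparison in control had 36 genes higher and 0 lower, with medians of 0.97 for all, 0.94 for large and 1.10 for small subunit genes. In STZ the same scaling gave 52 higher and 1 lower, with 1.37 for all, 1.37 for large and 1.36 for small. For STZ against control in Glut2H it gave 2 higher and 9 lower, with −0.37, −0.48 and −0.21. For the difference of the STZ effects it gave 16 and 7, with 0.42, 0.51 and 0.36. The shares of all rows under this scaling stand beside the same counts in the results above. With the median of all log2 ratios set to 0, the medians were 0.0521, 0.00711 and 0.154 in the control gates and 0.0578, 0.0599 and 0.0371 in the STZ gates, where 4 genes were higher. A fold of 1.5 gave 20 higher and 7 lower and 28 higher and 11 lower between the gates, 11 and 13 and 4 and 15 between STZ and control, and 19 upward for the difference. The share of all rows past a fold of 1.5 was not taken, so these counts have no background beside them. A pseudocount of 5 FPKM gave 6 higher and 4 lower in the STZ gates, 2 and 2 after STZ in Glut2H, 0 higher in Glut2L, and 4 and 7 for the difference. Requiring the deposited intervals not to overlap left 0 genes in each direction of all 4 comparisons, and this alternative gives no value for medians or for the difference. The share of all rows called was not taken for it, nor for the pseudocount of 5 FPKM or the medians set to 0.

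The ratio of large to small medians, with a filter of 5 FPKM, was 1.04 in Glut2L control, 1.22 in Glut2H STZ and 1.16 in Glut2L STZ. With mitoribosomal proteins of other symbols added it was 1.04, 1.25 and 1.09. Further alternatives were chosen after seeing the data. Without genes of wide loci, but with Mrpl33 kept, the ratio was 1.68 in Glut2L control and 1.57 in Glut2H STZ. The control gates then had 3 genes higher, a median of 0.0783 and a small subunit median of −0.0165, which turned its direction, and the STZ gates 4 genes lower. STZ against control then had a median of −0.26 for all and −0.35 for small subunit genes in Glut2H and 1 gene lower in Glut2L, and the difference had 6 genes downward and a small subunit median of 0.29. Without genes that share exonic bases the ratio in Glut2L STZ was 1.14. Without genes with a pseudogene row, 2 genes were lower in the control gates, 3 were lower after STZ in Glut2H, and the small subunit median of the difference was −0.0578. The median of the group minus that of all rows in the control gates was −0.04 with a filter of 5 FPKM and −0.07 without wide loci. The other 322 values of counts, medians and ratios of large to small medians moved less, counts by no more than 1.5 times and the others by no more than 0.1 on the log2 scale. Where values moved, the cause was not tested.

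No paired analysis was possible because each group has 1 library, and leaving out a replicate leaves none. The main limits are that single library, the unknown number of reads and library normalization, and deposited intervals wider than most differences.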

Other observations

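After STZ in the libraries labelled Glut2H, the lists of mitochondrial ribosome assembly and of translation factors had medians below that of all rows, while few of their genes passed 2-fold. The assembly list had 0 of 25 measured rows at least 2-fold higher and 3 lower, with a median log2 ratio of −0.48, and the 14 translation factors had 1 higher and 2 lower, with −0.41, beside a median of −0.07, 9.62% higher and 13.8% lower over all rows, so the counts past 2-fold lower were near the background. Mettl17, a factor that binds the small subunit, had 47.1 FPKM in the library labelled Glut2H control, 46.7 in Glut2L control, 9.30 in Glut2H STZ and 56.0 in Glut2L STZ, low in the library labelled Glut2H STZ alone. Tfb2m, a mitochondrial transcription factor, had 2.62, 3.19, 0.474 and 9.98 FPKM and was lowest in the same library. In the libraries labelled Glut2L the corresponding medians were −0.13 and −0.09.

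The nuclear respiratory chain genes had a median difference of the STZ effects of −0.28, with 1 of 80 upward and 14 downward by 2-fold or more, beside 18.4% upward and 15.5% downward over all rows. The downward count is near that background, and the median of the mitochondrial ribosomal protein genes was 0.14. The cytosolic ribosomal protein genes had a median log2 ratio of −0.27 after STZ in the libraries labelled Glut2L, with 1 higher and 1 lower of 84, beside 0.00 over all rows.

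Opposed neighbours did not always share the pattern of their ribosomal protein gene. Ndufs6 had 51.8, 95.9, 32.5 and 91.4 FPKM in the order above, with both libraries labelled Glut2L above both labelled Glut2H, while Mrpl36 had 9.54, 17.1, 19.2 and 17.2 FPKM. Tcp1, a chaperonin subunit whose start lies 644 bases from that of Mrpl18, had 90.2, 128, 123 and 104 FPKM.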
